A study of Mus musculus with 16 samples.

Results

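The Hoxc cluster is a row of homeobox genes on mouse chromosome 15, and it was followed here across the mesenchyme of the developing bladder and urethra. Its 9 members, Hoxc4, Hoxc5, Hoxc6, Hoxc8, Hoxc9, Hoxc10, Hoxc11, Hoxc12 and Hoxc13, were taken from the count table by gene symbol, out of 39 Hox genes in 4 clusters and 55228 gene symbols in all. In GRCm38 coordinates they lie on the plus strand between 102921103 and 103036852, a span of 115.8 kb. Of these, 7 had enough counts to be tested, and Hoxc12 and Hoxc13 did not.

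Hox genes encode DNA-binding homeodomain proteins that give cells their position along the body axis, and the order of the genes on the chromosome follows the order of the body regions where they act. Genes at the Hoxc4 end are switched on earlier and further forward in the body, and genes at the Hoxc13 end later and towards the tail. HOX proteins bind DNA together with TALE homeodomain partners of the Pbx, Meis and Pknox families, and members of one paralogue group in different clusters often act redundantly.

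The embryos were of the CD-1 strain, of wild-type genotype, untreated, and taken at embryonic day 16.5, and poly(A) RNA of their bladder and pelvic urethra mesenchyme was sequenced. There were 4 groups, females and males for each of the 2 tissues, and the pelvic urethra is called urethra here. Each group held 4 libraries, 1 from each of 4 independent litters, and in each litter the embryos of 1 sex were pooled, so a library is a pool and not 1 animal. The epithelium was peeled off with forceps after trypsin digestion on ice. The stated aim was to find genes that mark the bladder or the urethral compartment.

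Total counts ran from 18577097 to 22293812 in the 8 bladder libraries and from 24447435 to 29698009 in the 8 urethra libraries, of which 359 to 675 and 1724 to 2573 belonged to the Hoxc members. The labelled tissue was checked by marker sums, given as CPM (counts scaled to a fixed library total), on totals scaled by the trimmed mean of M-values. The 6 mesenchyme markers (Pdgfra, Pdgfrb, Col1a1, Col1a2, Vim and Dcn) summed to 11100 to 14200 CPM in bladder and 6840 to 8370 in urethra. Col1a1 and Col1a2 made up most of that sum and were lower in urethra, as was Vim, whereas Pdgfra (log2 fold change 2.21 ± 0.12, SE) and Pdgfrb (1.38 ± 0.12) were higher and Dcn did not pass the test. The 10 epithelium markers were not at 0, with sums of 1650 to 4050 CPM in bladder and 559 to 1900 in urethra. Of these, 7 were lower in urethra and 0 higher. Epcam (0.30 ± 0.15, SE), Krt5 (0.51 ± 0.25) and Trp63 (-0.12 ± 0.21) did not pass the test. Other cell types also differed between the tissues. The 6 neuron markers summed to 14.2 to 163 CPM in bladder and 573 to 983 in urethra, the 5 glia markers to 13 to 30.9 and 84.7 to 142, and the 6 skeletal muscle markers to 0.853 to 2.42 and 43.3 to 79.8. The 4 endothelium markers summed to 174 to 305 CPM in bladder and 337 to 464 in urethra, and the 4 cartilage markers to 14.4 to 26.5 and 47.6 to 70.8. The opposite order held for the 7 smooth muscle markers, at 8600 to 12600 CPM in bladder and 1180 to 1620 in urethra, and for the 5 mesothelium markers, at 461 to 907 and 109 to 146. Among the mesothelium markers Wt1 (-0.09 ± 0.13, SE) did not pass the test. No marker was at 0 in all libraries of a tissue. In bulk tissue, fewer cells of a type and less RNA per cell cannot be told apart, and the part of these cell types in the Hoxc differences was not tested.

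Along the chromosome the genes stood in the order Hoxc13, Hoxc12, Hoxc11, Hoxc10, Hoxc9, Hoxc8, Hoxc6, Hoxc5 and Hoxc4. By the lowest start alone Hoxc5 would come directly after Hoxc10, because the annotation gives Hoxc5 a far upstream exon. That exon overlaps an exon of Hoxc10 on the same strand over 166 bases, from 102967443 to 102967608, which is 8.7% of the counted length of Hoxc10 and 5.4% of that of Hoxc5. Reads there could not be assigned to 1 gene.

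The cluster also holds the antisense long noncoding RNA gene Hotair and 2 microRNA genes. Mir196a-2 lies between Hoxc10 and Hoxc9, and Mir615 lies between Hoxc6 and Hoxc4, within the span of Hoxc5. The mature strands whose seeds match 3′ untranslated regions (UTRs) of cluster members are shown, with the seed (bases 2 to 8) in capitals, from RefSeq on GRCm38.p6.
mmu-miR-196a-5p (chr15:102973365-102973386, plus strand): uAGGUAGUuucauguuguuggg
mmu-miR-615-5p (chr15:103014926-103014947, plus strand): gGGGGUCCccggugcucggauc
The match to the miR-196a-5p seed is ACTACCT and that to the miR-615-5p seed is GGACCCC, searched on the mRNA strand. Among the annotated 3′ UTRs of the 9 members, ACTACCT occurred in that of Hoxc8 alone, and there it occurred 2 times. In 2954 genes with a 3′ UTR of like length, 3.69% held at least 1 such match. GGACCCC occurred 1 time in the UTR of Hoxc11 and 1 time in that of Hoxc6, against 5.34% and 4.44% of genes with UTRs of like length. The matching stretches follow, read from GENCODE M21 transcripts with GRCm38 coordinates on the plus strand, with the match in capitals.
Hoxc8 (chr15:102992976-102992997): cactcacaactctaACTACCTg
Hoxc8 (chr15:102993733-102993754): taaatctttaacatACTACCTa
Hoxc11 (chr15:102956941-102956962): gacccgtggttagtGGACCCCg
Hoxc6 (chr15:103011174-103011195): taaaagtcagctttGGACCCCc
The seed matches of the opposite strands, miR-196a-2-3p and miR-615-3p, were found in none of these UTRs. Mature microRNAs carry no poly(A) tail, so these libraries did not measure them. The Mir196a-2 row held 0 counts in every library, and the Mir615 row held 0 or 1. A match is a description of the sequence and not a shown site.

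Hoxc10 had the highest mean level per kilobase of the members in both tissues, and over both sexes its tissue difference was the largest of the cluster, though that of Hoxc9 lay within the error and was the larger of the 2 in females and without bladder female replicate 2. Hoxc9, Hoxc10 and Hoxc11, which are neighbours towards the Hoxc13 end, and Hoxc4 at the other end of the cluster, were higher in urethra. Hoxc8, Hoxc6 and Hoxc5, which lie between them, did not pass the test, but Hoxc6 passed, making 5 of 7 higher, once the litter was a replicate block (adjusted p 0.0352, or 0.0426 for each litter and sex). With edgeR's quasi-likelihood test and Benjamini-Hochberg adjustment over 18254 genes, 4 of the 7 tested members were higher in urethra and 0 were lower, at an adjusted p under 0.05. At this threshold 36.5% of all genes tested were higher and 38.5% lower. No member was lower at an unadjusted p under 0.05, and DESeq2 also called 4 higher and 0 lower. The median log2 fold change of the tested members, urethra over bladder, was 0.79, and that of all genes was -0.03. At least 2-fold higher were 3 of 7 members, against 12.6% of all genes.

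Hoxc10 encodes a posterior HOX protein known from hindlimb and lumbar spinal cord development. In bladder its level was 9.62, 9.55, 7.90 and 15.3 CPM in the female libraries (replicates 1 to 4) and 4.77, 8.42, 9.63 and 6.82 CPM in the male ones. In urethra it was 33.9, 48.0, 35.9 and 46.5 CPM in females and 32.4, 33.4, 34.0 and 34.5 CPM in males. Every urethra library was above every bladder library, and the highest bladder library, female replicate 4, did not reach the lowest urethra library, male replicate 1. The log2 fold change was 2.07 ± 0.14 (SE), a 4.18-fold difference, with an edgeR adjusted p of 1.71e-09. The urethral male libraries lay close together, with a coefficient of variation of 2.73%, whereas the urethral females fell into a lower pair (replicates 1 and 3) and a higher pair (replicates 2 and 4).

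Hoxc9, its neighbour and a known determinant of thoracic identity in motor neurons and skeleton, differed by nearly as much. Its bladder levels were 2.13, 2.67, 1.01 and 3.18 CPM in females and 1.46, 2.24, 2.27 and 1.93 CPM in males. Its urethra levels were 8.55, 10.4, 8.10 and 12.2 CPM in females and 6.34, 8.42, 6.88 and 7.22 CPM in males. The groups did not overlap, and the lowest value of all, in bladder female replicate 3, rested on 20 counts. On the log2 scale the urethra was higher by 2.00 ± 0.17 (SE), or 3.99-fold, with an edgeR adjusted p of 1.44e-08.

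Hoxc11, whose paralogues Hoxa11 and Hoxd11 pattern kidney and limb, showed a smaller difference on the same side. Bladder held 6.27, 6.08, 6.38 and 6.10 CPM in females and 5.62, 7.35, 4.07 and 4.24 CPM in males. Urethra held 10.5, 15.1, 11.2 and 14.7 CPM in females and 13, 12, 8.99 and 10.3 CPM in males. Again every urethra library was above every bladder library, and the bladder females were almost identical to each other. This came to a log2 fold change of 1.05 ± 0.13 (SE), or 2.07-fold, with an edgeR adjusted p of 8.5e-07.

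Hoxc4, an anterior member with roles in cervical and thoracic skeleton and in muscle of the oesophagus, was the only other member with separate groups. In bladder it stood at 2.85, 3.41, 2.53 and 3.45 CPM in females and at 1.41, 2.72, 1.99 and 3.12 CPM in males. In urethra it stood at 4.03, 5.37, 4.39 and 4.86 CPM in females and at 4.10, 5.14, 4.81 and 4.14 CPM in males. The lowest urethra library was female replicate 1, which was above all 8 bladder libraries. The log2 fold change was 0.79 ± 0.13 (SE), or 1.73-fold, with an edgeR adjusted p of 4.73e-05. Hence 4 of the 7 tested members had every urethra library above every bladder library, a separation seen in 22% of all genes tested. In the same 4 the urethra was higher in all 8 pairs of 1 litter and sex, as in 31.6% of all genes.

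**Figure D1:**
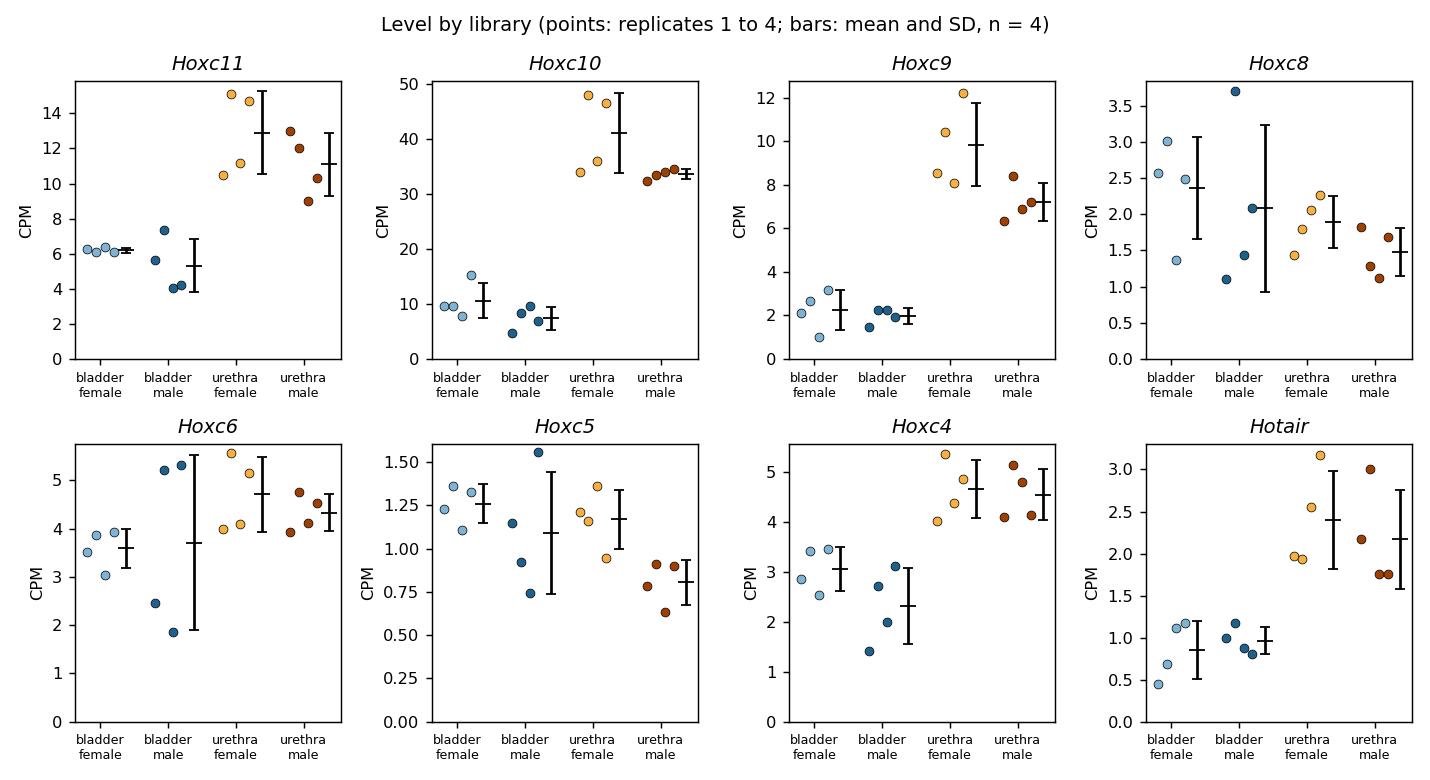
Levels of the 7 tested Hoxc members and Hotair in CPM (vertical axes, linear, starting at 0) for each library, with 1 point per replicate and a bar for the mean and SD of 4 libraries in each group. In Hoxc11, Hoxc10, Hoxc9, Hoxc4 and Hotair the urethra points stand above all bladder points, and in Hoxc8, Hoxc6 and Hoxc5 the tissues overlap.

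Hoxc8, a classic regulator of thoracic skeleton and motor neuron identity, overlapped between the tissues. Its bladder levels were 2.57, 3.01, 1.37 and 2.49 CPM in females and 1.10, 3.70, 1.44 and 2.09 CPM in males, and its urethra levels 1.43, 1.80, 2.06 and 2.26 CPM in females and 1.82, 1.29, 1.12 and 1.69 CPM in males. The urethra was lower in 6 of 8 litter and sex pairs, and bladder male replicate 2 had the highest level. Its log2 fold change was -0.40 ± 0.22 (SE), with a 95% interval from -0.88 to 0.07 and an edgeR adjusted p of 0.113. Without bladder male replicate 1, the lowest bladder library, Hoxc8 passed as lower in urethra, at -0.47 with an adjusted p of 0.0486.

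Hoxc6, known from thoracic patterning and mammary development, was higher in urethra in 6 of 8 pairs. Bladder held 3.52, 3.86, 3.04 and 3.93 CPM in females and 2.46, 5.21, 1.85 and 5.32 CPM in males, and urethra 4.00, 5.57, 4.10 and 5.16 CPM in females and 3.92, 4.75, 4.11 and 4.52 CPM in males. The bladder males were split, with replicates 2 and 4 above 7 of the 8 urethra libraries and replicates 1 and 3 lowest of all. The log2 fold change was 0.31 ± 0.18 (SE), with a 95% interval from -0.07 to 0.69 and an edgeR adjusted p of 0.127. The estimate was 0.34 with the litter as replicate block and 0.35 with a replicate block for each litter and sex, and passed in both. It also passed without bladder male replicate 2 (0.42, adjusted p 0.0425), without bladder male replicate 4 (0.42, adjusted p 0.0396) and when scaled by library totals alone (0.44, adjusted p 0.0322). That scaling raised the median gene by 0.136 on the log2 scale. In 20 of 25 alternatives Hoxc6 did not pass. Leaving out 1 library, the estimate ran from 0.231 to 0.419. The lowest of all, 0.105 (edgeR adjusted p 0.558), came without bladder male replicate 3 and urethra female replicates 2 and 4.

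Hoxc5, an anterior member beside Hoxc4, had the lowest level per kilobase of the tested members. It stood at 1.23, 1.36, 1.11 and 1.33 CPM in bladder females and at 1.15, 0.925, 0.741 and 1.56 CPM in bladder males, with 16 to 29 counts per bladder library. In urethra it stood at 1.21, 1.16, 1.36 and 0.944 CPM in females and at 0.784, 0.909, 0.632 and 0.898 CPM in males. It was lower in urethra in 7 of 8 pairs, but the ranges overlapped widely. Its log2 fold change was -0.27 ± 0.15 (SE), with a 95% interval from -0.58 to 0.05 and an edgeR adjusted p of 0.117.

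Hoxc13, required in hair and nail, and Hoxc12, at the posterior end of the cluster, were barely detected. Hoxc13 had 0 or 1 counts in each bladder library (4 in all) and 0 to 4 in each urethra library (11 in all). Hoxc12 had 0 counts in all 8 bladder libraries, which allows a level of up to 0.01848 CPM over the tissue (3 counts). In urethra it had 0 to 2 counts per library and 9 in all, or 0.0408 CPM, which is 2.21 times that limit. The urethra level is itself an estimate from 9 counts, so this is not a lower bound on the difference. Both fell under the expression filter. Without the filter Hoxc12 passed as higher in urethra (edgeR adjusted p 0.0202) and Hoxc13 did not (0.423). The bladder limit of Hoxc12 covers counting error only.

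The tissue difference was then taken in each sex. In females 4 of 7 members were higher and 0 lower, where 32.6% of all genes were higher and 33.1% lower. In males the count was again 4 and 0, where 31.4% were higher and 32.6% lower. The same 4 genes passed in both. For Hoxc10 the log2 fold change was 1.95 ± 0.20 (SE) in females and 2.17 ± 0.20 in males, and for Hoxc9 it was 2.13 ± 0.24 and 1.86 ± 0.24. Hoxc11 gave 1.05 ± 0.18 in both sexes. Hoxc4 gave 0.60 ± 0.19 in females (edgeR adjusted p 0.00941) and 0.98 ± 0.19 in males (0.000289). Without the 3 libraries highest in neuron markers within their tissues (bladder male replicate 3 and urethra female replicates 2 and 4), Hoxc4 in females was 0.48 with an adjusted p of 0.0846. Without the same libraries Hoxc10 in females was 1.73, and over both sexes it was 2.04 and Hoxc9 1.93. Hoxc11 was 0.82 in females and 0.89 over both sexes, under 2-fold, and passed in both (edgeR adjusted p 0.00118 and 1.18e-05). Over both sexes Hoxc4 was 0.705 and passed, and Hoxc6 was 0.105 and did not (edgeR adjusted p 0.558). The libraries left still differed in neuron markers, with sums of 14.2 to 58.0 CPM in bladder and 573 to 738 in urethra. In males, Hoxc5 passed as lower in urethra without bladder male replicate 3 (-0.52, adjusted p 0.0428) and without all 3 of these libraries (-0.56, 0.0337). The tissue difference itself differed between the sexes in 0 of 7 members by edgeR's interaction test, with 0 at an unadjusted p under 0.05 and 0 by DESeq2, where 0.668% of all genes passed. For Hoxc4, which had the interaction estimate farthest from 0 (0.38, males minus females), the 95% interval ran from -0.19 to 0.94.

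**Figure D2:**
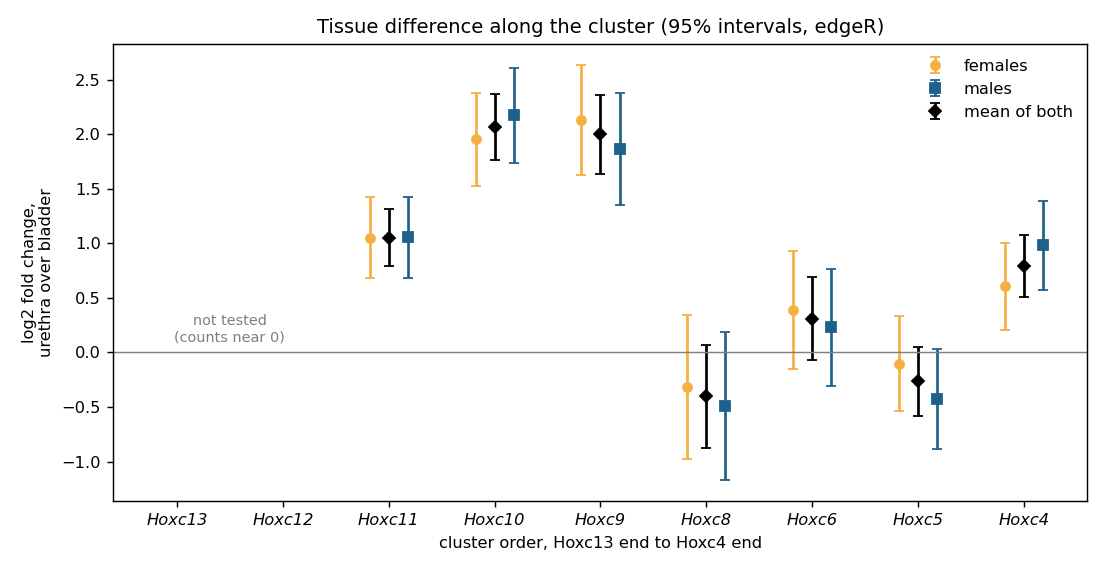
Log2 fold change of urethra over bladder (vertical axis) for each Hoxc member in cluster order (horizontal axis), for females, males and the mean of both, with 95% intervals from edgeR. Hoxc10 and Hoxc9 stand near 2, Hoxc11 near 1.05 and Hoxc4 at 0.79, and the intervals of Hoxc8, Hoxc6 and Hoxc5 include 0; Hoxc13 and Hoxc12 were not tested.

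Sexes of the same tissue were compared next. In bladder 0 of 7 members differed between males and females by edgeR, where 0.581% of all genes did. In urethra 0 of 7 differed, where 6.39% of all genes did. DESeq2 called 0 in either tissue and gave no adjusted p for 1 member in bladder. The estimates were nonetheless mostly on 1 side: lower in males for 6 of 7 members in bladder and for 7 of 7 in urethra, where 49.1% and 52.7% of all genes were lower. Several of these signs were not stable: without the 3 libraries highest in neuron markers the urethra estimates of Hoxc11 (0.02), Hoxc6 (0.09) and Hoxc4 (0.10) lay above 0, and in bladder those of Hoxc9 (0.04, without female replicate 4) and Hoxc8 (0.03, without male replicate 1). At an unadjusted p under 0.05 stood 1 member in bladder and 2 in urethra. In bladder this was Hoxc10, with a log2 fold change, male over female, of -0.51 ± 0.21 (SE) and an adjusted p of 0.332. In urethra it was Hoxc5, at -0.53 ± 0.20 (adjusted p 0.154), and Hoxc9, at -0.44 ± 0.21 (adjusted p 0.26). All 4 urethra male libraries were below all 4 female ones for Hoxc5, a separation in either direction seen in 13.4% of all genes. No other tested member separated the sexes in either tissue, and in bladder 6.62% of all genes did.

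Levels of different members were compared per kilobase of counted exon, since longer genes collect more reads. In bladder the order of mean level was Hoxc10 (4.71 CPM per kb), Hoxc11 (2.85), Hoxc6 (1.52), Hoxc4 (1.05), Hoxc9 (0.869), Hoxc8 (0.785) and Hoxc5 (0.381). Every neighbour pair in that order overlapped in range, and within libraries the first of a pair was the higher in 5 to 8 of 8, with 5 for Hoxc9 over Hoxc8 and 8 for Hoxc8 over Hoxc5. In urethra the order was Hoxc10 (19.5 CPM per kb), Hoxc11 (5.93), Hoxc9 (3.51), Hoxc6 (1.88), Hoxc4 (1.79), Hoxc8 (0.595) and Hoxc5 (0.319). There Hoxc10 stood clear of Hoxc11, Hoxc9 of Hoxc6, and Hoxc4 of Hoxc8, whereas the ranges of Hoxc11 and Hoxc9, of Hoxc6 and Hoxc4, and of Hoxc8 and Hoxc5 overlapped. Within libraries, however, Hoxc11 was above Hoxc9 and Hoxc8 above Hoxc5 in 8 of 8, and Hoxc6 above Hoxc4 in 5 of 8. Hoxc9 was thus number 5 in the order of bladder and number 3 in that of urethra.

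The summed level of all 9 members was 12.2 ± 2.60 CPM per kb (SD, n = 8) in bladder, with a range from 8.23 to 16.6. In urethra it was 33.6 ± 5.34 (SD, n = 8), from 29.3 to 42.4, with no overlap. Hoxc10 made up 38.2% ± 7.15 (SD, n = 8) of that sum in bladder and 58.1% ± 1.76 in urethra. Hoxc9 went from 7.10% ± 1.53 to 10.4% ± 1.08, with ranges that overlapped. The other 5 tested members had a smaller mean share in urethra. Hoxc8 had 6.30% ± 1.76 (SD) of the sum in bladder and 1.77% ± 0.334 in urethra, Hoxc6 12.5% ± 3.74 and 5.61% ± 0.410, Hoxc5 3.23% ± 0.908 and 0.959% ± 0.239, and Hoxc4 8.54% ± 1.36 and 5.39% ± 0.647. For these 4 the ranges of the shares did not overlap between tissues, while the levels of Hoxc8, Hoxc6 and Hoxc5 overlapped and did not pass the test. A share within the cluster has no counterpart over all genes. Shares add to a fixed total, so a higher share of Hoxc10 lowers those of other members. The makeup varied more among bladder libraries, where the share of Hoxc10 ran from 30.3% to 49.0%, than among urethra libraries, where it ran from 55.2% to 60.7%.

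**Figure D3:**
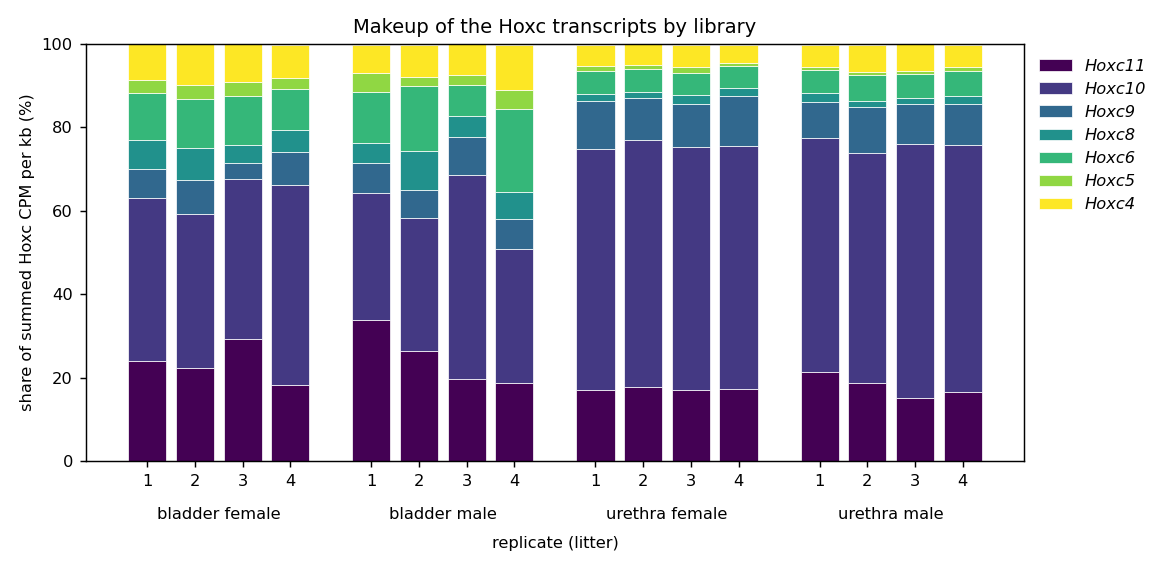
Share of each tested Hoxc member in the summed Hoxc CPM per kb (vertical axis, percent) for each of the 16 libraries, grouped by tissue and sex; Hoxc12 and Hoxc13 are too small to draw. Hoxc10 fills 55.2% to 60.7% of each urethra bar and 30.3% to 49.0% of each bladder bar.

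Against the other Hox clusters, Hoxc had the smallest mean share. It held 6.71% ± 1.31 (SD, n = 8) of the summed Hox CPM per kb in bladder and 10.6% ± 1.5 in urethra, with ranges of 4.52% to 9.11% and 9.28% to 13.3%. By level per kb, Hoxc10 ranked 9 of the 39 Hox genes in bladder and 6 in urethra.

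The 20 paralogues of the Hoxc members in the Hoxa, Hoxb and Hoxd clusters were all tested, and 14 were higher in urethra and 2 lower, with a median log2 fold change of 0.59, where 36.5% of all genes were higher and 38.5% lower, with a median of -0.03. The 2 highest were Hoxb8 (1.59 ± 0.09, SE) and Hoxb9 (1.47 ± 0.07), and the 2 lower ones Hoxd8 (-0.69 ± 0.06) and Hoxd4 (-0.32 ± 0.13). In paralogue group 8, therefore, Hoxb8 was higher and Hoxd8 lower, with Hoxc8 at -0.40. The paralogues of the members with the largest differences are given too, chosen after their values were seen. In group 9, Hoxc9 at 2.00 stood beside Hoxb9 at 1.47, Hoxd9 at 0.51 ± 0.09 and Hoxa9 at -0.00 ± 0.07, the last not passing the test (edgeR adjusted p 0.965). In group 10, Hoxc10 at 2.07 stood beside Hoxd10 at 1.11 ± 0.08 and Hoxa10 at 0.28 ± 0.06. In group 11, Hoxc11 at 1.05 stood beside Hoxd11 at 0.68 ± 0.07 and Hoxa11 at -0.09 ± 0.07 (adjusted p 0.24). The differences between paralogues were not tested. In group 13, Hoxa13 and Hoxd13, known for their part in the terminal urogenital tract, were higher in urethra by 1.01 ± 0.06 and 1.20 ± 0.07, while Hoxb13, at 0.30 ± 0.25, did not pass (adjusted p 0.291) and Hoxc13 was barely detected. Between the sexes, 6 of the 20 paralogues were higher in male urethra and 0 lower, where the tested Hoxc members counted 0 and 0, and 6.39% of all genes differed in either direction.

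**Figure D4:**
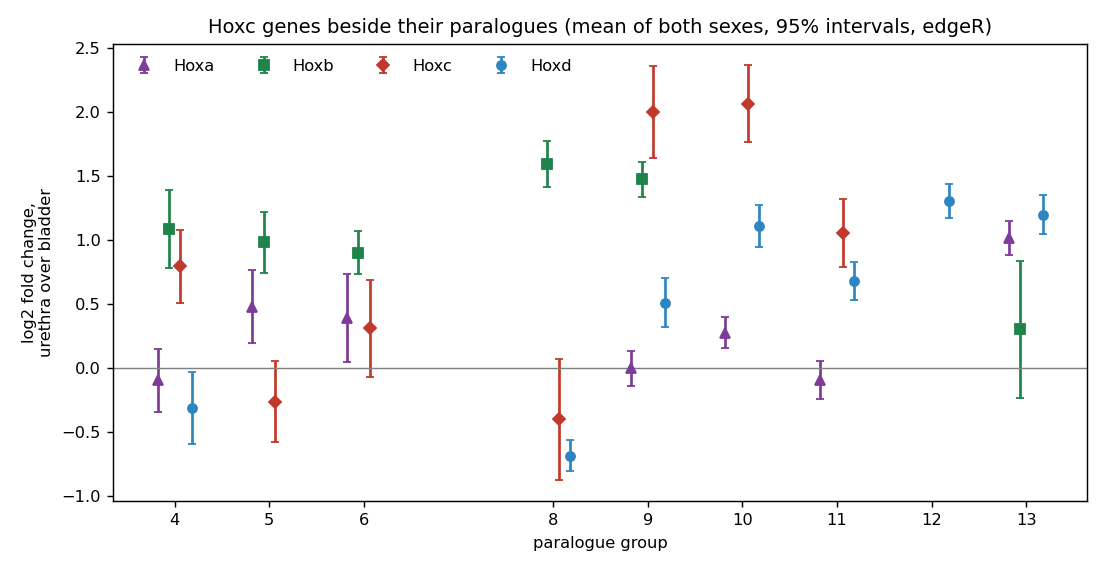
Log2 fold change of urethra over bladder, mean of both sexes (vertical axis), by paralogue group (horizontal axis), with 1 symbol per cluster and 95% intervals from edgeR; only tested genes of groups with a Hoxc member are drawn. Hoxc10 and Hoxc9 have the highest estimates of their groups, and Hoxc5 and Hoxc8 lie below 0 with intervals that include it.

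Hotair, transcribed from the opposite strand between Hoxc12 and Hoxc11, encodes a long noncoding RNA known for binding chromatin-modifying complexes. Bladder libraries held 0.448, 0.682, 1.11 and 1.17 CPM in females and 1.00, 1.17, 0.88 and 0.806 CPM in males. Urethra libraries held 1.97, 1.93, 2.55 and 3.17 CPM in females and 2.17, 3.01, 1.76 and 1.76 CPM in males. Its groups did not overlap, as for its neighbour Hoxc11. The log2 fold change was 1.32 ± 0.19 (SE), with an edgeR adjusted p of 8.15e-06. Of the 7 non-Hox rows within 20 kb of the cluster it was the only one with enough counts to test.

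Of 8 TALE partners of HOX proteins, all tested, 5 were higher in urethra and 2 lower, with a median log2 fold change of 0.22, against 36.5% and 38.5% of all genes. Pknox2 (1.38 ± 0.07, SE) and Meis3 (0.66 ± 0.06) were the highest of these. Pknox2 stood at 16.6 CPM in bladder and 43.0 in urethra on average. Meis2 (0.27 ± 0.05), Pbx4 (0.39 ± 0.14) and Pbx2 (0.16 ± 0.04) also rose, and Pbx3 (-0.28 ± 0.07) and Meis1 (-0.20 ± 0.04) fell. Pknox1, at 0.07 ± 0.05, did not pass (edgeR adjusted p 0.258). Among 15 known regulators of Hox clusters, 12 were tested, 8 were higher in urethra and 2 lower, against the same shares of all genes, with a median of 0.16. The 2 highest were the Polycomb subunit gene Bmi1 (0.93 ± 0.04) and the growth factor gene Gdf11 (0.83 ± 0.07), which sets the trunk to tail transition. The 2 lower were the Polycomb subunit genes Eed (-0.39 ± 0.05) and Suz12 (-0.18 ± 0.04). Cdx1, Cdx2 and Cdx4 had too few counts to test. With library totals alone none of the called genes of these lists or of the paralogues changed direction, but Meis1 (-0.07), Pbx3 (-0.14), Suz12 (-0.04) and Hoxd4 (-0.18) no longer passed, and Pknox1 (0.20) and Ezh2 (0.21) did.

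For Hoxc10 and Hoxc9, the 2 members with the largest tissue difference, the genes with the most similar pattern were sought among 12885 genes outside the cluster with a mean of at least 5 CPM, by the root mean square difference of centred log2 CPM over 16 libraries. Closest to Hoxc10 were Shisa9 (0.186), Slc44a5 (0.198), Fmn2 (0.199), Mtmr7 (0.204) and Ngfr (0.206). Closest to Hoxc9 were Fmn2 (0.214), Npy2r (0.240), Ccdc184 (0.262), Pak3 (0.274) and Shisa9 (0.278). Hoxc9 and Hoxc10 differed from each other by 0.278, and the next member, Hoxc11, differed from each of them by 0.635. This measure is over all libraries and so includes the tissue difference, and Fmn2, for example, differed by 1.90 ± 0.15 (SE) on the log2 scale.

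Within each tissue the level of each tested member was set against the summed level of each of the 9 marker lists, 126 relations in all over 8 libraries each, which share 4 litters and 2 sexes. None passed an adjusted p of 0.05 by exact permutation of Pearson's r, the smallest adjusted p was 0.153, and 13 had an unadjusted p under 0.05. The relation with the smallest p in each tissue and the others of these 13 are given, chosen after the values were seen. In urethra, Hoxc10 went with the neuron marker sum, with r = 0.94 (exact permutation p = 0.00243) and rho = 0.83 (p = 0.0154). Without the 2 libraries farthest from the median, female replicates 2 and 4, r was 0.62. Those are the libraries that form the higher pair of Hoxc10. The relation was not particular to Hoxc10: the neuron sum in urethra gave r = 0.86 for Hoxc6, 0.84 for Hoxc9 and 0.80 for Hoxc4 (exact permutation p = 0.00704, 0.0109 and 0.0138), and r without the same libraries was 0.39, 0.41 and 0.73. The glia sum in urethra gave r = 0.76 and rho = 0.90 for Hoxc10 (exact permutation p = 0.0236 and 0.00456), and r = 0.80 for Hoxc9 (p = 0.0184). Without female replicate 4 and male replicate 1, r was 0.57 and 0.35. The cartilage sum in urethra gave r = -0.81 for Hoxc9 and -0.80 for Hoxc5 (exact permutation p = 0.0134 and 0.0217). The neuron relation of Hoxc10 was weaker in bladder, with r = 0.33 (exact permutation p = 0.398) and rho = 0.48 (p = 0.243). Hoxc5 went the other way there, with r = -0.84 for the neuron sum and -0.80 for the glia sum (exact permutation p = 0.0104 and 0.0183). Without the 2 libraries farthest from the median of each sum, r was -0.07 and -0.58. In bladder, Hoxc6 went with the mesothelium marker sum, with r = 0.91 (exact permutation p = 0.00208) and rho = 0.88 (p = 0.00724), and r = 0.82 without male replicates 2 and 3. The bladder males that were high in Hoxc6, replicates 2 and 4, had the highest mesothelium sums of all libraries, at 907 and 819 CPM, and the other bladder libraries had 461 to 717. Hoxc8 in bladder had r = 0.77 with the mesothelium sum and -0.73 with the smooth muscle sum (exact permutation p = 0.0299 and 0.0427). In urethra the mesothelium relation of Hoxc6 had r = -0.45 (exact permutation p = 0.274). The sum is made up differently there. Wt1 had the highest mean of the 5 mesothelium markers in urethra (73.7 CPM), and Upk3b in bladder (374 CPM).

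**Figure D5:**
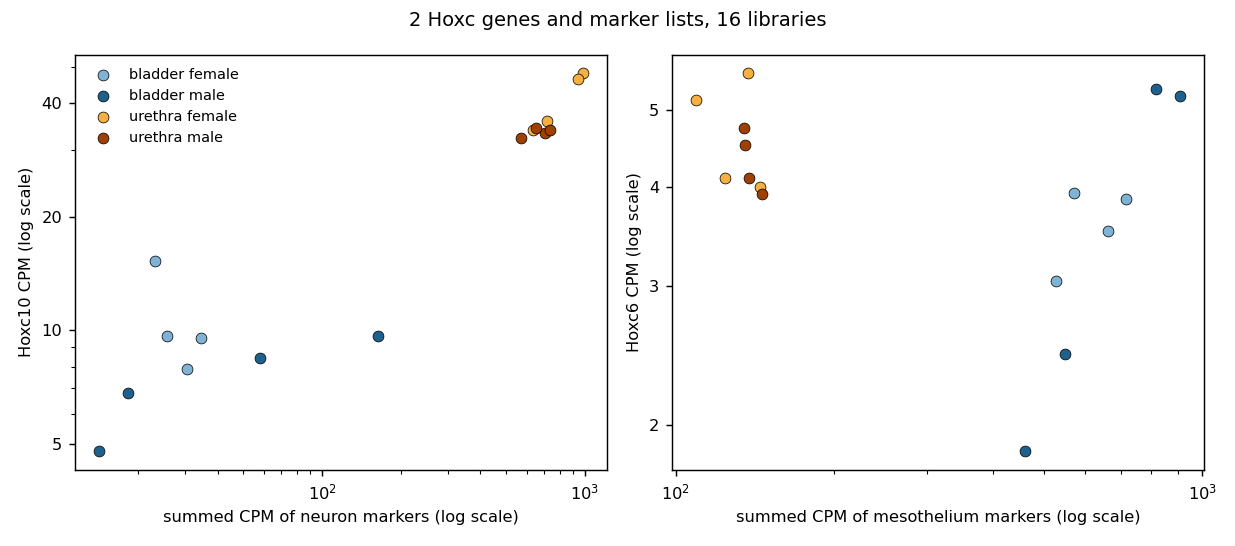
Left, Hoxc10 in CPM against the summed CPM of the neuron markers; right, Hoxc6 in CPM against the summed CPM of the mesothelium markers, all axes on a log scale, 1 point per library. Within urethra the female replicates 2 and 4 are highest for both Hoxc10 and the neuron sum, and within bladder the male replicates 2 and 4 are highest for both Hoxc6 and the mesothelium sum.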

How the data were processed

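Reads were aligned with HISAT2 2.1.0 to GRCm38 and counted with featureCounts of Subread 1.6.3, per the submitters' processing notes; the strand setting was 2 (reverse), per the file headers. The authors deposited raw counts of read pairs per gene symbol, and a second table whose values are those counts divided by size factors (signal, per the file headers and the values), which matched the counts to within rounding and was used for no test. The whole table was fitted with edgeR 4.0.16 in R 4.3.3 (trimmed mean of M-values scaling, default expression filter, robust quasi-likelihood test on 4 group means, Benjamini-Hochberg adjustment over 18254 genes, threshold 0.05). SEs and intervals were derived from the F statistic. DESeq2 1.42.0 was an alternative; the other alternatives were another scaling, filters, the litter as block, the libraries of 1 comparison, each library left out, and libraries left out by marker sums. The fit was tested on simulated data. CPM uses the scaled totals, and CPM per kb the deposited exon length. The number that opens each column label was read as the litter. Between the 2 tissues of 1 sex, deviations from the group mean correlated by a median of 0.19 for the same number (0.09 to 0.41, 8 pairs). For other numbers the median was -0.06. Between the sexes of 1 tissue the medians were 0.12 (-0.05 to 0.27, 8 pairs) and -0.04. Deviations are taken from the mean of the same 4 libraries, so the 2 medians of a comparison are linked. The tested members held 16 to 1379 counts per library, and the SEs cover the spread between libraries as well as counting error. No 2 replicates were copies. Hoxc members were chosen with earlier results of these data known, and so were the lists of TALE partners, paralogues, regulators and markers. All members were described; from the lists of paralogues and regulators the 2 highest and 2 lowest past the threshold were named, and the 8 TALE partners used; 1 gene of that list is not reported here. Sequences are from RefSeq (mature microRNAs) and from GENCODE M21 transcripts (UTRs, GRCm38 coordinates).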

Additional observations from a re-analysis of the deposited data

How the results depend on the processing

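Across the alternatives 1396 values were recomputed, of which 1350 kept their direction and their side of the threshold (counts of members: within 1.5 times) and 29 changed sign, none of which passed the test in either setting. Of 304 counts of members called, 11 moved, each by 1. The number of members lower in urethra, 0 over both sexes, ran from 0 to 1 when each library was left out, and in males also from 0 to 1; it was 1 in males without the 3 libraries highest in neuron markers, a setting chosen after seeing the data. The number higher, 4 over both sexes, ran from 4 to 5 (5 with library totals alone, with either replicate block, without the filter and without bladder male replicate 2 or 4), and in females from 3 to 5. With the litter as replicate block, the 4 members called higher over both sexes still passed and Hoxc6 joined them at 0.34. The block changed no other call of a tested member. Hoxc6 in females passed when only the female libraries were fitted (0.40, edgeR adjusted p 0.0422). Library totals alone raised the share of called genes that were higher in urethra from 48.7% to 60.8%. Without division by length, Hoxc8 and Hoxc9 trade places in bladder and Hoxc6 and Hoxc4 in urethra. Over all alternatives the log2 fold change of Hoxc10 ran from 2.01 to 2.21 and that of Hoxc9 from 1.91 to 2.14. That of Hoxc11 ran from 0.89 to 1.187, that of Hoxc4 from 0.705 to 0.927 and that of Hoxc6 from 0.105 to 0.444. A block for each litter and sex gives no comparison of the sexes, and the mean of both sexes and the interaction already use all libraries, so these settings have no value there. The estimates that changed sign were these, on the log2 scale. With library totals alone Hoxc5 in females was 0.025 and Hoxc4 between the sexes in urethra 0.004. Without the 3 libraries highest in neuron markers these were 0.043 and 0.102, Hoxc11 and Hoxc6 between the sexes in urethra were 0.018 and 0.087, and the interaction of Hoxc9 was 0.046. Hoxc6 between the sexes in bladder was -0.011 with the litter as replicate block, the interaction of Hoxc11 was -0.011 without the filter, and that of Hoxc8 was 0.055 without the 2 libraries lowest in epithelium markers. Leaving out each library, the difference of the sexes in bladder ran from -0.427 to 0.040 for Hoxc9, from -0.612 to 0.030 for Hoxc8 and from -0.179 to 0.253 for Hoxc6, and in urethra from -0.098 to 0.039 for Hoxc4. The interaction ran from -0.090 to 0.199 for Hoxc11, from -0.465 to 0.002 for Hoxc9, from -0.361 to 0.262 for Hoxc8 and from -0.352 to 0.060 for Hoxc6. The causes were not tested. Hoxc12 and Hoxc13 had too few counts to pass the filter.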
